A study of Homo sapiens
Mus musculus and Homo sapiens and Mus musculus with 7 samples.

Results

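The machinery that copies DNA was followed as 49 human genes of 58721 counted. They were taken by their gene symbols, with earlier results of these data known. They fall into 6 roles and a single further gene. These are 9 genes of origin licensing, 12 of the replicative helicase, 10 of the polymerases and primase, 6 of the sliding clamp and its loader, 6 of single-strand binding and Okazaki fragment maturation, 5 of nucleotide supply, and UHRF1, which binds newly copied, hemimethylated DNA.

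The libraries come from HEK293 cells, a human embryonic kidney line, grown together with NIH3T3 cells, a mouse fibroblast line. The HEK293 cells expressed the large-subunit ribosomal protein RPL22 fused to an HA tag, and the NIH3T3 cells expressed RPL22 fused to a V5 tag. An antibody against HA was meant to recover ribosomes of HEK293 cells with their RNA, and an antibody against V5 those of NIH3T3 cells. There were 2 HA immunoprecipitates (IPs), 2 V5 IPs, 1 library of the whole co-culture (the input), 1 of HEK293 alone and 1 of NIH3T3 alone. For both antibodies the labels call the pair of IPs first and second. Both first IPs were made from the lysate numbered 1, the second HA IP from lysate 5 and the second V5 IP from lysate 4. The labels do not say which libraries these numbers stand for. Read in the listed order of the samples, 1 would be the input, 4 the first HA IP and 5 the first V5 IP, so that the second IPs may be later pulldowns from lysate already used and not separate replicates. Every mean, SD, n of 2 and p-value for IPs below carries that doubt. Whether the lines grown alone carried the tags, what promoter drove the tagged RPL22 and whether either line was a clone is not stated in the labels.

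DNA replication starts where the origin recognition complex (ORC), CDC6 and CDT1 load the MCM helicase ring onto DNA, a step that geminin (GMNN) blocks once it has happened. CDC45 and the GINS complex turn the ring into an active helicase, primase lays down primers, and polymerases delta and epsilon extend them, held to the template by the PCNA clamp that replication factor C (RFC) loads. Most of these genes are transcribed in cycling cells around the entry into S phase, under control of E2F factors, and HEK293 is a continuously cycling line.

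Levels are given as CPM of human counts (counts of a gene per 1e6 human counts in the same library), so that the share of mouse RNA drops out. Human counts amounted to 729698 in the first HA IP and 1213213 in the second, 128915 and 81798 in the V5 IPs, 280163 in the input and 826673 in HEK293 alone. The human share of all counts was 82.1% and 77.6% in HA IPs, 6.25% and 4.48% in V5 IPs and 26.9% in the input. A single count was therefore worth 1.37 and 0.824 CPM in the HA IPs, 7.76 and 12.2 CPM in the V5 IPs, 3.57 CPM in the input and 1.21 CPM in HEK293 alone. In NIH3T3 alone all 49 genes had 0 counts, which allows up to 1.501 CPM over its 1999078 counts. Mitochondrial genes, which cytoplasmic ribosomes do not translate, held 0.354% and 0.466% of human counts for the HA IPs, 2.28% and 3.54% for the V5 IPs, 5.58% in the input and 8.35% in HEK293 alone. Of the 6 genes taken as HEK293 markers, VIM and NEFL had counts in all 6 libraries, and KRT18 in all but the first V5 IP. VIM was at 94.6 and 49.5 CPM in the HA IPs and 287 and 36.7 CPM in the V5 IPs. It thus did not set the HA IPs apart. INA had 1 count in the second V5 IP, 1 in HEK293 alone and 0 in the HA IPs, the first V5 IP and the input, KRT8 had at most 8.47 CPM in any library, NEFM was at 0 throughout, and no human fibroblast marker had more than 1 count in any library. In these bulk libraries fewer cells of a type and less RNA per cell cannot be told apart.

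All 49 genes were seen in both HA IPs and 48 in HEK293 alone, but 41 and 32 in the V5 IPs and 43 in the input. At 10 counts or more, 37 and 39 genes were counted for the HA IPs, 17 and 11 for the V5 IPs, 20 for the input and 40 for HEK293 alone. Together the 49 genes took 0.482% and 0.329% of human counts for the HA IPs, 0.525% and 0.438% for the V5 IPs, 0.503% in the input and 0.534% in HEK293 alone. The second HA IP had the smallest share and the other 5 libraries lay close together. TK1, POLD2, GMNN, DUT and MCM5 alone made up 65.9% of the summed level in the input, against 41.9% to 48.8% in the other 5 libraries. Without these 5 genes the sum was 2804 and 1686 CPM in the HA IPs, 2963 and 2347 CPM in the V5 IPs, 1713 CPM in the input and 2909 CPM in HEK293 alone.

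**Figure D1:**
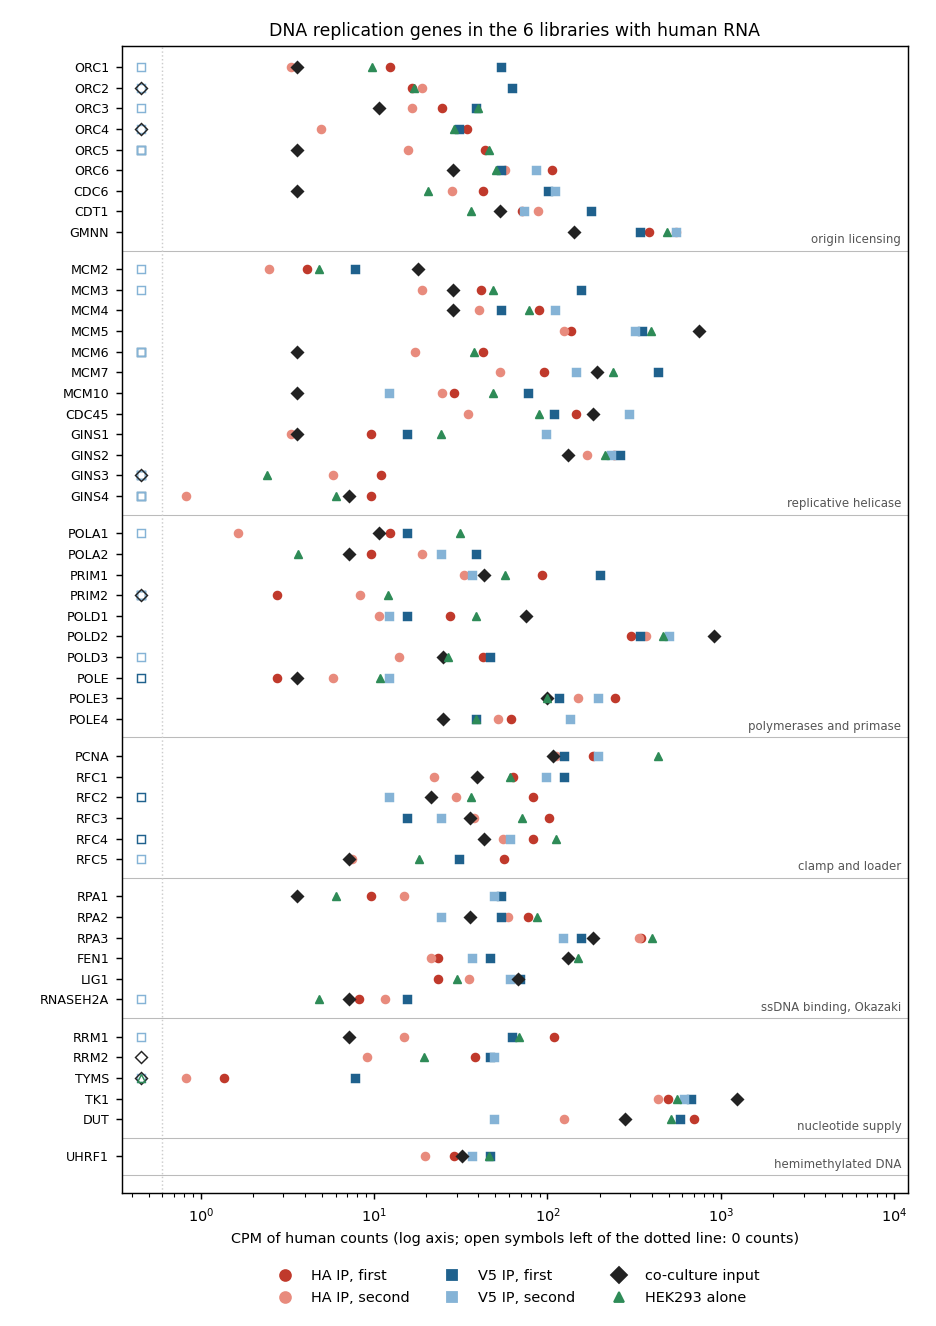
CPM of human counts (log axis) of all 49 genes, ordered by role, with 1 symbol per library and open symbols at the left for 0 counts. TK1 in the input, at 1235 CPM, is the highest point, and most open symbols belong to the V5 IPs, where a single count is worth 7.76 or 12.2 CPM.

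Base composition moved with the differences between HA IPs and input given below, so coding stretches of 5 of the genes are shown. The comparison of HA IPs with the input turns on MCM5. TK1 had the highest level per kilobase in HEK293 alone, CDT1 has among the highest GC contents of the tested genes, and ORC3 and RFC3 are among those with the lowest. Each is the middle 90 bases of the longest coding part of a single exon, in the GENCODE 29 transcript with the longest coding sequence, read 5′ to 3′ on the gene's own strand. Capitals mark G and C. Positions are of hg38.
MCM5: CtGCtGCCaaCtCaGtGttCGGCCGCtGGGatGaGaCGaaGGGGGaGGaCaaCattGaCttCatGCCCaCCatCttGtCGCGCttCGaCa
TK1: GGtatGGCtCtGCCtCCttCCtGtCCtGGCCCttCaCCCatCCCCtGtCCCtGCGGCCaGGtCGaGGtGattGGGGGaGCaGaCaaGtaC
CDT1: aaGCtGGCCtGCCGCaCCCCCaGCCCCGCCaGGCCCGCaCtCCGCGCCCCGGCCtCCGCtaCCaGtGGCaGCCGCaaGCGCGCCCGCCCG
ORC3: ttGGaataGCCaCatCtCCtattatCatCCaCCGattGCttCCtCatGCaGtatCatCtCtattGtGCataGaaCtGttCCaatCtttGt
RFC3: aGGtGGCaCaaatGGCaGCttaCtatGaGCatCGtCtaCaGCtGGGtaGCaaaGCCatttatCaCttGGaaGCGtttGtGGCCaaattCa

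The MCM5 stretch lies in exon 12 of 17 at chr22:35416681-35416770 (plus strand), and that of TK1 in exon 6 of 6 at chr17:78174921-78175010 (minus strand). The CDT1 stretch is in exon 1 of 10 at chr16:88803901-88803990, that of ORC3 in exon 8 of 20 at chr6:87612124-87612213 and that of RFC3 in exon 9 of 9 at chr13:33836153-33836242, all on the plus strand. Whole transcripts were 56.6% G and C for MCM5, 62.8% for TK1, 64.9% for CDT1, 39.3% for ORC3 and 39.1% for RFC3. Over the 42 genes that could be tested, transcript GC ran from 37.7% for ORC4 to 65.0% for POLD1.

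Of the origin licensing genes, GMNN, the inhibitor of CDT1, had the most counts. It was at 386 CPM in the first and 552 CPM in the second HA IP, 341 and 550.1 CPM in the V5 IPs, 142.8 CPM in the input and 492 CPM in HEK293 alone. The input was thus the low library, and the HA and V5 IPs spanned the same range. CDT1, the loading factor itself, was at 71.3 and 88.2 CPM in the HA IPs, 178 and 73.4 CPM in the V5 IPs, 53.5 CPM in the input and 36.3 CPM in HEK293 alone. CDC6, the ATPase that works with ORC, was at 42.5 and 28.0 CPM in the HA IPs, 101 and 110.0 CPM in the V5 IPs, 3.57 CPM (1 count) in the input and 20.6 CPM in HEK293 alone. Both V5 IPs were above every other library for CDC6, on 13 and 9 counts.

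The 6 ORC subunits had few counts. ORC1 was at 12.3 and 3.30 CPM in the HA IPs, 54.3 and 0 CPM in the V5 IPs, 3.57 CPM in the input and 9.68 CPM in HEK293 alone. ORC2 was at 16.4 and 19.0 CPM in the HA IPs, 62.1 and 0 CPM in the V5 IPs, 0 in the input and 16.9 CPM in HEK293 alone. Values of the V5 IPs and the input for this complex rest on at most 8 counts each, so no order of those libraries can be read from them. ORC4 was at 34.3 and 4.95 CPM in the HA IPs, 31.0 and 0 CPM in the V5 IPs, 0 in the input and 29.03 CPM in HEK293 alone. ORC5 was at 43.9 and 15.7 CPM in the HA IPs, 0 in both V5 IPs, 3.57 CPM in the input and 46.0 CPM in HEK293 alone. ORC4 and ORC5 were thus present in both HA IPs and HEK293 alone and at or near 0 in the input. ORC3 and ORC6 lay between 10.7 and 106 CPM wherever they had counts, and ORC3 was at 0 in the second V5 IP. Summed over the 9 licensing genes, the level was 737 and 785 CPM in the HA IPs, 861 and 819 CPM in the V5 IPs, 246 CPM in the input and 742 CPM in HEK293 alone.

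The MCM2-7 genes encode the 6 subunits of the helicase ring. MCM5 (ENSG00000100297.15, chr22:35400063-35425430) was at 137 and 125 CPM in the HA IPs, 349 and 318 CPM in the V5 IPs, 746 CPM in the input and 396 CPM in HEK293 alone. MCM7 (ENSG00000166508.17, chr7:100092728-100101940) was at 95.9 and 53.6 CPM in the HA IPs, 434 and 147 CPM in the V5 IPs, 193 CPM in the input and 238 CPM in HEK293 alone. For both genes the 2 HA IPs were the lowest of the 6 libraries. MCM3 was at 41.1 and 19.0 CPM in the HA IPs, 155 and 0 CPM in the V5 IPs, 28.6 CPM in the input and 48.4 CPM in HEK293 alone. MCM4 was at 89.1 and 40.4 CPM in the HA IPs, 54.3 and 110.0 CPM in the V5 IPs, 28.6 CPM in the input and 78.6 CPM in HEK293 alone. In these 2 genes the HA IPs overlapped the V5 IPs. MCM6 was at 42.5 and 17.3 CPM in the HA IPs, 0 in both V5 IPs, 3.57 CPM (1 count) in the input and 37.5 CPM in HEK293 alone. MCM2 was at 4.11 and 2.47 CPM in the HA IPs, 7.76 and 0 CPM in the V5 IPs, 17.8 CPM in the input and 4.84 CPM in HEK293 alone, on at most 5 counts, and was not tested. MCM6 and MCM2 thus had too few counts in the V5 IPs and the input to order those libraries.

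CDC45, which joins the ring to form the active helicase, was at 145 and 34.6 CPM in the HA IPs, 109 and 293 CPM in the V5 IPs, 182 CPM in the input and 89.5 CPM in HEK293 alone. GINS2, a GINS subunit, was at 241 and 168 CPM in the HA IPs, 264 and 232 CPM in the V5 IPs, 132 CPM in the input and 215 CPM in HEK293 alone. GINS1 was at 9.59 and 3.30 CPM in the HA IPs, 15.5 and 97.8 CPM in the V5 IPs, 3.57 CPM in the input and 24.2 CPM in HEK293 alone. CDC45 differed more between IPs of the same antibody than GINS2 did. GINS3 and GINS4 had at most 8 counts in any library, and MCM10, which helps activate the helicase, ran from 3.57 CPM in the input to 77.6 CPM in the first V5 IP. The 12 helicase genes summed to 855 and 495 CPM in the HA IPs, 1466 and 1210 CPM in the V5 IPs, 1346 CPM in the input and 1189 CPM in HEK293 alone, so that both HA IPs were below the other libraries.

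Among the polymerase genes, POLD2, an accessory subunit of polymerase delta, had the most counts. POLD2 (ENSG00000106628.10, chr7:44114681-44124358) was at 303 and 371 CPM in the HA IPs, 341 and 501 CPM in the V5 IPs, 910.2 CPM in the input and 465 CPM in HEK293 alone. POLD1, the catalytic subunit, was at 27.4 and 10.7 CPM in the HA IPs, 15.5 and 12.2 CPM in the V5 IPs, 74.96 CPM in the input and 38.7 CPM in HEK293 alone. Both subunits had their highest level in the input. POLE3, a histone-fold subunit of polymerase epsilon, was at 247 and 150.8 CPM in the HA IPs, 116 and 196 CPM in the V5 IPs, 99.9 CPM in the input and 99.2 CPM in HEK293 alone. POLA1, the catalytic subunit of polymerase alpha, was at 12.3 and 1.65 CPM in the HA IPs, 15.5 and 0 CPM in the V5 IPs, 10.7 CPM in the input and 31.5 CPM in HEK293 alone. POLA2, its second subunit, was at 9.59 and 19.0 CPM in the HA IPs, 38.8 and 24.5 CPM in the V5 IPs, 7.14 CPM in the input and 3.63 CPM in HEK293 alone. Exons of AP000944.2, on the same strand, cover 35.1% of the exonic bases of POLA2, and reads there cannot be assigned to either gene. PRIM1, POLD3 and POLE4 lay between 14.0 and 202 CPM wherever they had counts, and PRIM2 and POLE stayed at or under 12.2 CPM.

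PCNA (ENSG00000132646.10, chr20:5114953-5126626), the sliding clamp, was at 184 and 112 CPM in the HA IPs, 124 and 196 CPM in the V5 IPs, 107 CPM in the input and 437 CPM in HEK293 alone. Here HEK293 alone was the high library, and the input lay at the level of the IPs. RFC2, a small subunit of the clamp loader, was at 82.2 and 29.7 CPM in the HA IPs, 0 and 12.2 CPM in the V5 IPs, 21.4 CPM in the input and 36.3 CPM in HEK293 alone. The other 4 loader subunits ran between 7.14 and 124 CPM wherever they had counts. RFC1, RFC2, RFC3 and RFC5 were each lower in the second than in the first HA IP by over 2-fold.

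RPA3, the smallest subunit of the single-strand binding protein RPA, was at 348 and 336 CPM in the HA IPs, 155 and 122 CPM in the V5 IPs, 182 CPM in the input and 402 CPM in HEK293 alone. The HA IPs were thus close to HEK293 alone and above the V5 IPs and the input. RPA1, the large subunit, was at 9.59 and 14.8 CPM in the HA IPs, 54.3 and 48.9 CPM in the V5 IPs, 3.57 CPM in the input and 6.05 CPM in HEK293 alone. FEN1 (ENSG00000168496.3, chr11:61792637-61797244), the flap endonuclease that trims Okazaki fragments, was at 23.3 and 21.4 CPM in the HA IPs, 46.5 and 36.7 CPM in the V5 IPs, 132 CPM in the input and 150.0 CPM in HEK293 alone. FEN1 was low in all 4 IPs and high in both libraries of total RNA. LIG1, the ligase that seals the fragments, and RPA2 lay between 23.3 and 87.1 CPM, and RNASEH2A stayed at or under 15.5 CPM and was not tested.

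TK1 (ENSG00000167900.11, chr17:78174075-78187233), thymidine kinase of the salvage pathway, was at 495 and 433 CPM in the HA IPs, 675 and 611 CPM in the V5 IPs, 1235 CPM in the input and 561 CPM in HEK293 alone. DUT, which removes dUTP, was at 699 and 124 CPM in the HA IPs, 582 and 48.9 CPM in the V5 IPs, 278 CPM in the input and 514 CPM in HEK293 alone. In CPM, TK1 was lowest in the HA IPs and differed little within either pair of IPs. DUT was lower in the second than in the first IP of both antibodies. RRM1 and RRM2 encode the subunits of ribonucleotide reductase. RRM2 was at 38.4 and 9.07 CPM in the HA IPs, 46.5 and 48.9 CPM in the V5 IPs, 0 in the input and 19.4 CPM in HEK293 alone. RRM1 was at 7.14 CPM (2 counts) in the input and between 0 and 109.6 CPM elsewhere. TYMS, thymidylate synthase, had 3 counts over the 6 libraries, and 46.6% of its exonic bases are shared with other genes, mainly ENOSF1 on the opposite strand. UHRF1 was at 28.8 and 19.8 CPM in the HA IPs, 46.5 and 36.7 CPM in the V5 IPs, 32.1 CPM in the input and 46.0 CPM in HEK293 alone.

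Levels of different genes were compared per kilobase of exon, in HEK293 alone, where no pulldown was involved. Subunits of the same complex were far apart on this scale. MCM7 and MCM5 were at 54.3 and 53.9 CPM per kb, MCM3, MCM4 and MCM6 between 9.11 and 13.3, and MCM2 at 0.987, a ratio of 55.0 between the ends of the ring. The exact 95% binomial interval of that ratio, for counting error alone, was 21.2 to 204, since MCM2 had 4 counts. GINS2 was 139 times (38.0 to 1158) above GINS3, which had 2 counts, and RPA3 113 times (47.9 to 349.8) above RPA1, which had 5. POLE3 was 58.1 times (29.2 to 132) above POLE, which had 9 counts, and PRIM1 36.8 times (11.8 to 185) above POLA2, which had 3. POLD2 was 26.0 times (16.9 to 42.0) above POLD3, on 22 counts. The order of the first 5 of these ratios cannot be read, as their intervals overlap. The ORC and RFC subunits were closer together, with ratios of 4.25 (2.25 to 8.50) and 6.65 (3.83 to 12.4) between the highest and lowest. Per kilobase TK1 (302) and PCNA (297) led the 49 genes, followed by GMNN (199). These ratios come from 1 library and use the full exonic length of all isoforms. That length includes bases shared with exons of other genes, where reads cannot be assigned. Such bases made up 23.6% for MCM2 and 8.94% for MCM7, and 35.1% for POLA2 and 21.6% for PRIM1. The part of this overlap in the ratios was not tested. Levels per kilobase were lower for longer transcripts. Spearman's rho was −0.65 over the 48 genes with a count and −0.63 over 5605 human genes at 10 CPM or more. All points share the same library. The level is itself divided by exonic length, so a negative rho arises in part from that division. It does not show how counts vary with length. The part of transcript length in the subunit ratios was not tested.

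**Figure D2:**
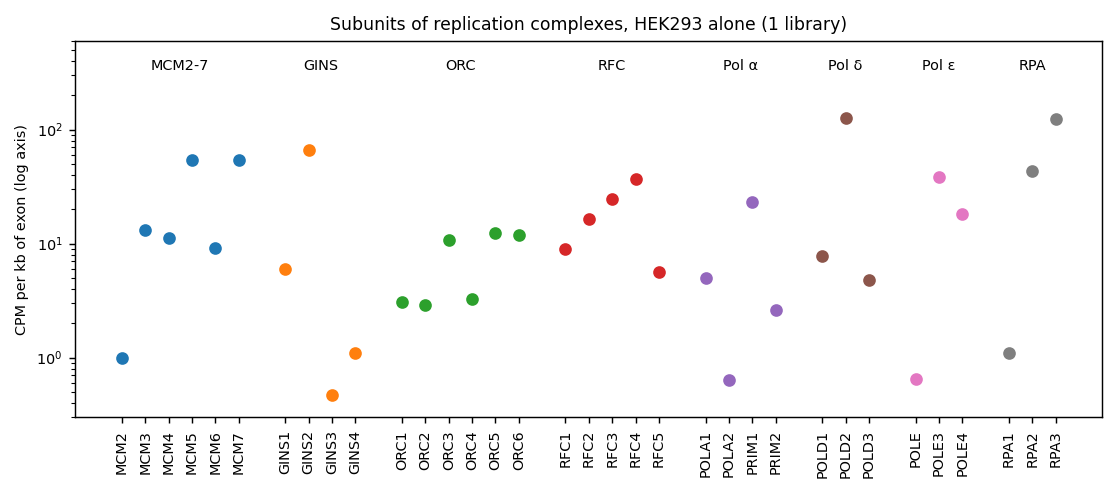
CPM per kb of exon (log axis) in the single library of HEK293 alone, for subunits of 8 replication complexes, 1 point per gene and 1 colour per complex. GINS2 and GINS3 stand apart by a ratio of 139, on 178 and 2 counts, and the highest and lowest ORC subunits by 4.25, on 38 and 14 counts.

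HA IPs were first compared with the input, to set RNA on tagged HEK293 ribosomes against human RNA of the whole culture. MCM5 fell by 2.69 on the log2 scale (SE 0.61), and was the 1 called of 42 replication genes tested, where 0.625% of all 6244 human genes tested were called, 0.192% as higher and 0.432% as lower. Its HA IPs averaged 131 ± 8.31 CPM (SD, n = 2), against 746 CPM in the single input, and the ratio of summed counts was 0.174 (95% interval 0.144 to 0.210). Its adjusted p was 0.00306 (edgeR quasi-likelihood test, Benjamini-Hochberg over all genes tested). Without the first HA IP the difference was −2.62 and the adjusted p 0.0687, and without the second HA IP the adjusted p was 0.0171.

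Of the 49 genes 42 passed the filter on low counts. MCM2, GINS3, GINS4, POLE, PRIM2, RNASEH2A and TYMS did not. At an unadjusted p under 0.05 there were 6 of 42, against 8.86% of all genes. Input and HEK293 alone have no replicate. The error behind these p-values thus comes from differences within the pairs of IPs, which may be technical. The fit shared that error across genes, so a p-value does not weigh the SD of a single gene. Each SE of a fitted difference was derived from the edgeR test. It is the absolute log2 difference divided by the square root of the test's F statistic. The p-values also assume that the single libraries vary like the IPs. Intervals in parentheses are exact binomial 95% intervals. They hold counting error alone, as no molecular identifiers were used.

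The 3 lowest fitted differences after filtering were those of FEN1 at −2.73 (SE 0.92, adjusted p = 0.188), MCM5 at −2.69 and POLD1 at −2.23 (SE 1.17, adjusted p = 0.578), by edgeR's quasi-likelihood test. TK1 at −1.60 (SE 0.55), POLD2 at −1.59 (SE 0.57), MCM7 at −1.59 (SE 0.72), LIG1 at −1.33 (SE 1.09) and CDC45 at −1.32 (SE 0.77) followed, with edgeR adjusted p-values of 0.208, 0.255, 0.473, 0.806 and 0.651. Ratios of summed counts, HA IPs over input, were 0.168 (0.105 to 0.267) for FEN1, 0.369 (0.326 to 0.419) for TK1, 0.379 (0.328 to 0.440) for POLD2 and 0.3605 (0.261 to 0.504) for MCM7. DESeq2's Wald test gave an adjusted p to 11 of the 42 genes and called 3 of them, MCM5, TK1 and POLD2, all lower, where it called 5.85% of the 1402 genes given one. A fit by edgeR of the HA IPs and the input alone called 5, adding FEN1 and POLD1. FEN1 was also called when either V5 IP was left out (edgeR adjusted p = 0.0124 and 0.0132).

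On the other side GMNN had a fitted difference of 1.58 (SE 0.68, edgeR adjusted p = 0.444) and a ratio of 3.43 (2.501 to 4.83). The 3 highest fitted values belonged to ORC2, ORC4 and RRM2, each without a count in the input. Taking 3 counts for that 0, ORC2 was 1.68-fold higher in the HA IPs, ORC4 1.49-fold and RRM2 1.87-fold. The lower limits of their exact binomial intervals were 1.30, 1.14 and 1.45. CDC6 had 1 count in the input and a ratio of 9.37 (1.62 to 376), MCM6 also 1 count and a ratio of 7.50 (1.29 to 302), and RRM1 2 counts and a ratio of 7.07 (1.90 to 59.2). The intervals of the last 3 genes span more than an order of magnitude.

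Both HA IPs lay above the input for 25 of the 42 genes, where 52.1% of all genes did, and below it for 9, where 25.8% did. Those 9 were MCM5, MCM7, CDC45, POLD1, POLD2, FEN1, LIG1, TK1 and UHRF1. The median fitted difference was 0.71 over the 42 genes and 0.38 over all genes, with 29 of 42 above 0 against 61.4% of all. Scaling moved the median of all genes to 0.17 with DESeq2 size factors and 0.57 with total human counts, and that of the 42 genes to 0.50 and 0.91.

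**Figure D3:**
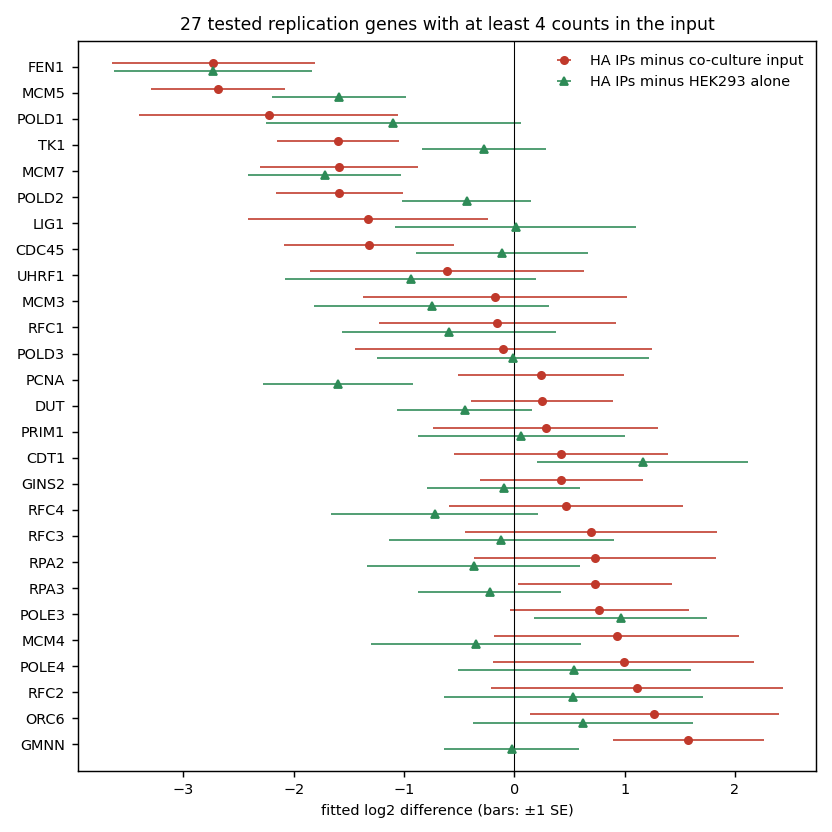
Fitted log2 differences (edgeR, bars ±1 SE) of HA IPs minus input (circles) and HA IPs minus HEK293 alone (triangles), for the 27 tested genes with at least 4 counts in the input. FEN1 and MCM5 are lowest against the input, at −2.73 and −2.69, and FEN1 is as low against HEK293 alone, whereas TK1 and POLD2 lie near 0 there. Both comparisons use the same HA IPs.

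Differences between HA IPs and input moved with GC content. Over 2255 human genes averaging 50 CPM or more, Spearman's rho between transcript GC and the fitted difference was −0.67, and over the 21 replication genes among them it was −0.44. All points share the same libraries, and the part of GC content in the members' values was tested only by removing the trend. With each library's GC trend removed, MCM5 had a difference of −2.30 (edgeR adjusted p = 0.0185), and the median was 0.13 over the 42 genes and 0.14 over all genes. GMNN then had 0.75 in place of 1.58, TK1 −1.09, POLD2 −1.08 and MCM7 −1.09, each with an edgeR adjusted p of 0.996, and FEN1 −2.57 with an edgeR adjusted p of 0.495. The genes of the printed stretches show the range by whole transcript. GC-rich MCM5 and TK1 had negative differences. ORC3 and RFC3, whose transcripts are low in G and C, had 0.72 (SE 1.58) and 0.70 (SE 1.14). The printed stretch was 40% G and C for ORC3 and 46.7% for RFC3. CDT1, the richest of the printed stretches at 81.1% G and C, had 0.42 (SE 0.97). Against HEK293 alone the same rho was 0.33 over all 2255 genes and −0.08 over the 21.

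**Figure D4:**
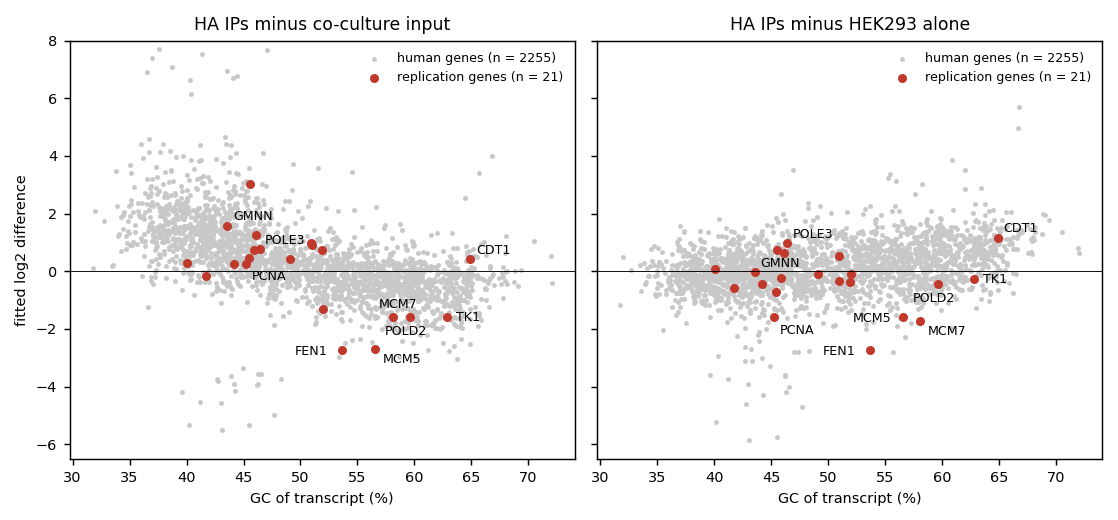
Fitted log2 difference against transcript GC (%), for HA IPs minus input (left) and HA IPs minus HEK293 alone (right). Grey points are 2255 human genes averaging 50 CPM or more and red points the 21 replication genes among them. The grey cloud slopes down on the left (rho −0.67) and up on the right (rho 0.33), and MCM5 and FEN1 lie at its lower edge in both.

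HA IPs were then set against HEK293 alone, where no mouse RNA was present. None of the 42 genes was called, where 0.368% of all genes were, 0.048% as higher and 0.32% as lower. Counts at an unadjusted p under 0.05 were 4 of 42, against 3.83% of all genes. DESeq2 gave an adjusted p to 3 of the 42 genes, GMNN, POLD2 and TK1, and called 0 of them, where it called 8.06% of the 434 genes given one. FEN1 had a difference of −2.73 (SE 0.90, edgeR adjusted p = 0.3501) and a ratio of 0.148 (0.102 to 0.210). It was called on leaving out the first V5 IP (edgeR adjusted p = 0.00729) or the second (0.00678) and in a fit of the HA IPs and HEK293 alone (0.00975). The other genes at the low end were POLA1 at −2.30 (SE 1.67) and GINS1 at −1.97 (SE 1.47), both on few counts.

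MCM7 at −1.72 (SE 0.69), PCNA at −1.60 (SE 0.68) and MCM5 at −1.59 (SE 0.61) also lay below 0, with edgeR adjusted p-values of 0.913, 1.00 and 0.686. PCNA, with a ratio of 0.318 (0.271 to 0.374) against HEK293 alone, had a ratio of 1.30 (0.888 to 1.96) against the input. The highest differences were those of POLA2 at 1.99 (SE 1.91), CDT1 at 1.16 (SE 0.96) and RPA1 at 1.04 (SE 1.68), each with an edgeR adjusted p of 1.00, and CDT1 had 0.51 with the GC trend removed. Both HA IPs lay above HEK293 alone for 7 genes (34.1% of all genes) and below it for 17 (33.6% of all). The median was −0.32 over the 42 genes, with 13 above 0, and 0.01 over all genes, with 50.6% above 0. Without the first HA IP the median of the genes tested was −0.81 and without the second −0.08.

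Human RNA in the V5 IPs came with a pulldown aimed at mouse ribosomes. Comparing HA with V5 IPs asked which human transcripts were relatively more frequent on HEK293 ribosomes than in the human RNA of that pulldown. None of the 42 genes was called by edgeR, where 0.368% of all genes were, 0.048% as higher and 0.32% as lower. At an unadjusted p under 0.05 there were 5 of 42, against 11.2% of all genes. DESeq2 called 0 of the 37 genes it gave an adjusted p, where it called 0.673% of 4307. RPA3 averaged 342 ± 8.34 CPM in the HA IPs and 139 ± 23.3 CPM in the V5 IPs (SD, n = 2 each), a fitted difference of 1.67 (SE 0.60, edgeR adjusted p = 0.260). MCM7 averaged 74.8 ± 29.9 CPM in the HA IPs and 291 ± 203 CPM in the V5 IPs (SD, n = 2 each), a difference of −1.67 (SE 0.62, edgeR adjusted p = 0.275). Without the second V5 IP MCM7 was called (−2.22, edgeR adjusted p = 0.0401), as was RFC4, which had 0 counts in the first V5 IP. MCM5 averaged 131 ± 8.31 CPM in the HA IPs and 333 ± 22.1 CPM in the V5 IPs (SD, n = 2 each), a difference of −0.97 (SE 0.54, edgeR adjusted p = 0.495).

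MCM6 and ORC5 had 52 and 51 counts over the HA IPs and 0 in both V5 IPs. Taking 3 counts for that 0, summed over the V5 IPs, MCM6 was 1.88-fold higher in the HA IPs and ORC5 1.84-fold. The lower limits of their exact binomial intervals were 1.48 and 1.45. RFC2 had 96 counts over the HA IPs and 1 over the V5 IPs, a ratio of 10.4 (1.82 to 415). At the low end GINS1 had −2.73 (SE 1.40) and ORC1 −1.64 (SE 1.74). In CPM, both HA IPs lay above both V5 IPs for 6 genes, where 25.7% of all genes did, and below both for 12, where 15% did. The 6 were RPA2, RPA3, RFC2, RFC3, MCM6 and ORC5, and the 12 were MCM5, MCM7, GINS1, CDC6, POLA2, RFC1, RPA1, FEN1, LIG1, TK1, RRM2 and UHRF1. The median difference was −0.05 over the 42 genes, 21 of them above 0, and 0.37 over all genes. With total human counts the 2 medians were −0.36 and 0.00, and without the first V5 IP 0.45 and 0.93.

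In V5 IPs against the input none of the 42 genes was called by edgeR, where 0.753% of all genes were, 0.256% as higher and 0.496% as lower. At an unadjusted p under 0.05 there were 7 of 42, against 12.9% of all genes. DESeq2 called 0 of the 11 genes it gave an adjusted p, where it called 4.35% of 1402. POLD2 at −1.68 (SE 0.59), MCM5 at −1.72 (SE 0.63) and TK1 at −1.50 (SE 0.56) had edgeR adjusted p-values of 0.173, 0.191 and 0.200. With the GC trend removed the differences of POLD2, MCM5 and TK1 were −0.55, −0.77 and −0.40. CDC6 had 22 counts over the V5 IPs and 1 in the input, a ratio of 29.3 (4.73 to 1207), and an edgeR adjusted p of 0.252. POLD1 at −2.94 (SE 1.42), FEN1 at −2.19 (SE 1.02) and RRM2, 4.43-fold higher taking 3 counts for its 0 in the input, completed the 7. The lower limit of the exact binomial interval for RRM2 was 2.98. Both V5 IPs lay above the input for 16 genes (30.3% of all genes) and below it for 10 (27.3% of all). The median difference was 0.21 over the 42 genes, with 23 above 0, and 0 over all genes, with 49.6% above 0. HA IPs and V5 IPs were compared with the same input library, so the differences of MCM5, TK1 and POLD2 in the 2 comparisons share that library.

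The 2 HA IPs were below each of the other 4 libraries for 5 of the 42 genes, where 3.22% of all tested genes showed this, and above them for 0, where 7.8% did. The 5 were MCM5, MCM7, TK1, FEN1 and UHRF1, picked out after their values were seen. This order is of CPM of human counts, without the scaling factors used in the fits. With those factors the difference between HA and V5 IPs was −0.10 (SE 0.48) for TK1, −0.53 (SE 0.93) for FEN1 and −0.45 (SE 1.09) for UHRF1. In MCM5 the nearest other library was the second V5 IP, at 318 CPM against 137 and 125 CPM in the HA IPs. In FEN1 it was again the second V5 IP, with 3 counts, and in UHRF1 the input, with 9 counts. UHRF1 in its first HA IP, at 28.8 CPM, was close to the input at 32.1 CPM.

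**Figure D5:**
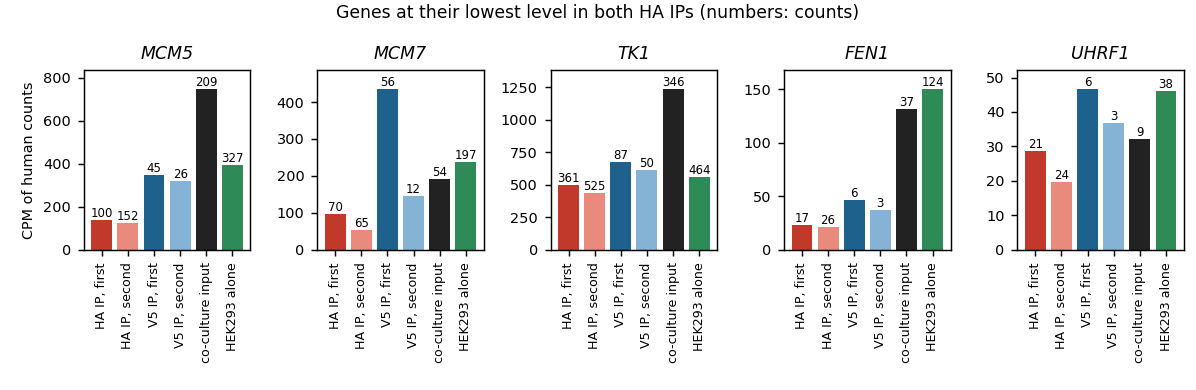
CPM of human counts of the 5 genes at their lowest level in both HA IPs, 1 bar per library, with the number of counts above each bar. MCM5 has 100 and 152 counts in its HA bars, against 209 for the input, whereas FEN1 and UHRF1 have at most 6 counts in each V5 IP.

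The input and HEK293 alone were compared as 1 library against 1, with no test, over the 23 replication genes at 50 CPM or more in either. TK1, LIG1 and CDC45 were over 2-fold higher in the input, 3 of 23 where 19.7% of all genes were. RPA2, RFC4, GMNN, RPA3, MCM4, RRM1 and PCNA were over 2-fold lower, 7 of 23 where 33.2% of all genes were. The ratio, input over HEK293 alone, was 2.20 (1.91 to 2.53) for TK1, 1.96 (1.67 to 2.30) for POLD2 and 1.89 (1.58 to 2.25) for MCM5. It was 0.245 (0.163 to 0.356) for PCNA and 0.290 (0.204 to 0.402) for GMNN. These values of TK1, POLD2 and MCM5 and those of HA IPs against input share the single input library.

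IPs of the same antibody were compared in the same way. Of 23 genes at 50 CPM or more, 9 were over 2-fold lower in the second than in the first HA IP, where 18.3% of all genes were, and 0 were higher, where 2.08% were. The 9 were RFC1, RFC2, RFC3, RFC5, MCM4, CDC45, PRIM1, RRM1 and DUT. The ratio, second over first HA IP, was 0.178 (0.148 to 0.214) for DUT and 0.135 (0.0764 to 0.228) for RRM1. It was 0.914 (0.706 to 1.19) for MCM5, 0.875 (0.764 to 1.00) for TK1 and 0.966 (0.824 to 1.13) for RPA3. The median log2 ratio was −0.71 over the 23 genes and −0.20 over all genes.

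Between the V5 IPs 4 of 28 genes were over 2-fold higher in the second, POLE4, RFC4, GINS1 and CDC45, where 24.4% of all genes were. A further 8 of 28 were over 2-fold lower, ORC1, ORC2, MCM3, MCM7, MCM10, RRM1, PRIM1 and DUT, where 23.8% of all genes were. DUT had a ratio of 0.0841 (0.0223 to 0.224). PRIM1 had a ratio of 0.182 (0.0352 to 0.593) for V5 and 0.354 (0.233 to 0.530) for HA. DUT, RRM1 and PRIM1 were thus lower in the second IP of both antibodies, and CDC45 was lower in the second HA IP and higher in the second V5 IP. In the mouse-directed V5 IPs these ratios rest on as few as 4 counts for DUT, 3 for PRIM1 and 0 for RRM1.

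Other genes around the fork were followed in 5 lists of 74 genes, of which 57 were tested. In none of the 4 comparisons was a gene of these lists called by edgeR. At an unadjusted p under 0.05 there were 5 of 57 in HA IPs against input (8.86% of all genes), 3 in HA IPs against HEK293 alone (3.83%), 10 in HA against V5 IPs (11.2%) and 8 in V5 IPs against input (12.9%). DESeq2 gave 12, 2, 42 and 12 of the 57 an adjusted p in the same order and called 0, 0, 1 (DNMT1, lower in HA) and 1 (TOP1, higher in V5), where it called 5.85%, 8.06%, 0.673% and 4.35% of all genes given one. The median difference of the 57 genes was 0.92 in HA IPs against input, with 43 above 0, beside 0.38 over all genes. It was −0.28 in HA IPs against HEK293 alone, with 19 above 0, beside 0.01 over all genes. For HA against V5 IPs it was −0.15, with 27 above 0, beside 0.37 over all genes. In V5 IPs against input it was 0.85, with 39 above 0, beside 0 over all genes.

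Among origin firing and fork protection genes, TIPIN, a fork protection partner of TIMELESS, was at 145 and 127 CPM in the HA IPs, 77.6 and 232 CPM in the V5 IPs, 32.1 CPM in the input and 142.7 CPM in HEK293 alone. DBF4, the activator of the origin-firing kinase CDC7, was at 67.2 and 65.9 CPM in the HA IPs, 46.5 and 135 CPM in the V5 IPs, 10.7 CPM in the input and 46.0 CPM in HEK293 alone. Both had their lowest level in the input, as GMNN did. TOP1, the topoisomerase that relieves supercoils, was at 197 and 134 CPM in the HA IPs, 489 and 232 CPM in the V5 IPs, 24.99 CPM in the input and 167 CPM in HEK293 alone, and RNASEH2C, a subunit of RNase H2, ran from 253 CPM in HEK293 alone to 964 CPM in the second HA IP. DNMT1, the maintenance methyltransferase that UHRF1 recruits, was at 133 and 98.1 CPM in the HA IPs, 427 and 575 CPM in the V5 IPs, 89.2 CPM in the input and 177 CPM in HEK293 alone. Both V5 IPs were above the other 4 libraries for DNMT1. SUPT16H, a subunit of the histone chaperone FACT, lay between 67.8 and 416 CPM.

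In the list of S-phase regulators SKP2 and CCNA2 lay between 60.7 and 171 CPM, and among further nucleotide synthesis genes PAICS, of purine synthesis, between 73.4 and 426 CPM. DCTPP1, which breaks down modified dCTP, was at 1077 and 1099.6 CPM in the HA IPs, 977 and 623 CPM in the V5 IPs, 1064 CPM in the input and 527 CPM in HEK293 alone. The 6 markers of cycling cells summed to 632 and 360.2 CPM in the HA IPs, 760.2 and 477 CPM in the V5 IPs, 296 CPM in the input and 835 CPM in HEK293 alone, with counts for all 6 in every library. Their sum was thus lowest in the input and highest in HEK293 alone, and its part in the differences of PCNA and GMNN was not tested.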

How the data were processed

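The deposited files hold whole-number counts per gene, made by the authors with featureCounts 1.5.2, unstranded (option 0), over the exons of a joint human and mouse annotation, per the file headers. The submitters' processing notes name STAR 2.5.2, Trim Galore and hg38. The mouse build is not named there. Reads in exons of more than 1 gene cannot be assigned to either. All 58721 human identifiers matched GENCODE 29, which gave symbols, GC content and positions.

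From the counts, CPM of human counts were computed, and genes were tested with edgeR 4.0.16 (quasi-likelihood, TMM factors, filterByExpr with 10 and 15 counts) in R 4.3.3. The fit held the 6 libraries with human RNA, with 2 residual degrees of freedom and a biological coefficient of variation of 51.2%. P-values were two-sided and adjusted by Benjamini-Hochberg over 6244 genes, at a threshold of 0.05. DESeq2 1.42.0 was an alternative. Single libraries were set side by side as log2 CPM ratios (prior count 2, 50 CPM or more in either), and ratios of counts have exact 95% binomial intervals. The script was tested on simulated data. Python 3.11.15 was used for the rest.

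The members, gene lists and tests were chosen with earlier results of these data known. Values in every library are given for called genes, genes with a mean of at least 100 CPM, MCM2-7 and the 3 highest and lowest fitted differences per comparison. Of the other lists, called genes or the 2 most abundant are named.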

Additional observations from a re-analysis of the deposited data

Results flagged for a closer look

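CDC45 moved in opposite directions between IPs of the 2 antibodies. Its log2 ratio, second over first IP, was −2.03 for HA, on 42 and 106 counts, and 1.36 for V5, on 24 and 14 counts. The ratios of CPM were 0.238 (95% interval 0.163 to 0.344) for HA and 2.70 (1.34 to 5.65) for V5. The difference between these ratios was not tested, since each rests on 1 library against 1. The human share of counts was 77.6% in the second HA IP and 4.48% in the second V5 IP, and the part of depth in the V5 ratio was not tested.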

How the results depend on the processing

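Named genes here are 37 pairs of a gene and a comparison, picked by their values in the reported fit. Other differences given above, such as that of MCM5 between HA and V5 IPs, were not followed. Over 13 alternatives no fitted difference of a named gene changed sign, which that choice made likely. In V5 IPs against input those of ORC2 and ORC4 fell to 0 without the first V5 IP. Of 417 values for named genes with an adjusted p, 401 stayed on their side of the threshold, 15 gained a call and 1, MCM5 without the first HA IP, lost it. A further 24, all from DESeq2's Wald test, had no adjusted p and were left out. The cause of the changes below was not tested.

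In HA IPs against input, calls among the replication genes were 1 as reported, 3 with DESeq2 size factors, 2 with a filter of 50 counts in 2 libraries (MCM5 and TK1), 3 with DESeq2's Wald test, 5 with only the groups compared, and 0 to 2 when each IP was left out in turn. Against HEK293 alone they were 0 as reported, 1 with only the groups compared and 0 to 1 on leaving out an IP. For HA against V5 IPs they were 0 as reported and 0 to 2 on leaving out an IP.

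Calls over all human genes in HA IPs against input were 39 (12 higher, 27 lower). They were 68 with DESeq2 size factors (15, 53), 104 with total human counts (65, 39), 82 with DESeq2's test (35, 47), 25 with the GC trend removed (2, 23), 260 with only the groups compared (124, 136) and 29 to 140 on leaving out an IP, the 140 without the first V5 IP (77, 63). Against HEK293 alone the 23 calls (3, 20) were 53 with total counts (24, 29), 35 with DESeq2's test (12, 23), 48 with only the groups compared (11, 37) and 26 to 63 on leaving out an IP, the 63 without the first HA IP (42, 21). For HA against V5 IPs the 23 calls (3, 20) were 38 with total counts (2, 36), 41 with the GC trend removed (1, 40) and 18 to 117 on leaving out an IP, with 59 without the first HA IP (42, 17), 52 without the first V5 IP (16, 36) and 117 without the second (54, 63). For V5 IPs against input the 47 calls (16, 31) were 72 with DESeq2 size factors (29, 43), 105 with total counts (85, 20), 30 with no filter, 7 with the 50-count filter, 20 with the GC trend removed (11, 9), 71 with only the groups compared and 76 to 167 on leaving out an IP.

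Genes past 2-fold between single libraries were 17 and 6, in place of 10, for input against HEK293 alone with floors of 20 and 100 CPM. They were 16 and 4 in place of 9 between HA IPs, and 6 at 100 CPM in place of 12 between V5 IPs.

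Whether IP order pairs the libraries is not settled. The first IPs share lysate 1, the second come from lysates 5 and 4, and deviations of same-numbered IPs correlated at 0.0913, from 2 IPs per antibody. With the order as a replicate block, the calls over all genes in HA IPs against input were 51. In that fit MCM5 had an edgeR adjusted p of 0.000245, and the calls among the replication genes were 1 in that comparison and 0 in the other 3. The V5 IPs and the input limit what can be seen, since 17 and 11 of the genes had 10 counts or more in the V5 IPs and 20 in the input.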

Other observations

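Exons of other genes covered at least 20% of the exonic bases in 7 of the 49 replication genes, and 4 of these 7, MCM2, GINS4, RNASEH2A and TYMS, did not pass the filter on low counts. The share was 46.6% for TYMS, 35.1% for POLA2, 30.8% for RNASEH2A and 23.6% for MCM2, while 26 genes had none. GINS3, PRIM2 and POLE also failed the filter with less overlap. MCM7 has 8.94% of its exonic bases under exons of AP4M1, and FEN1 has 8.68% under other genes, mainly TMEM258. With unstranded counting, reads in such bases cannot be assigned to either gene, whichever strand the other gene is on. The counts of these genes are uncertain to that extent. The part of overlap in their levels was not tested.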
